A study of Mus musculus with 9 samples.

Results

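The genes described here build and drive the mitotic apparatus: the kinetochore, the spindle, the chromosomes they move and the kinases and checkpoints that time division. They were given as a list of 47 gene symbols, and each was represented by its probeset with the highest mean. A probeset carrying 1 gene symbol was found for 46 of the 47, out of 19938 genes with such a probeset, and all 46 lay among the 14953 genes bright enough to be tested. Cyclin B1 (Ccnb1) was not analysed here. Expression was measured in scrapings of colon epithelium from male C57BL/6J mice of 9 to 11 weeks, an inbred laboratory strain. Fat supplied 40% of the energy in both diets. All mice ate the control diet for a run-in of 1 week, and then either stayed on it or were switched to the same food with heme, the iron porphyrin that colours red meat, added at 0.2 µmol/g. RNA was pooled within a diet and day before hybridisation, so each of the 9 arrays is 1 pool of 4 mice (3 in the control pool of day 2). There were 5 control pools (days 0, 2, 4, 7 and 14) and 4 heme pools (days 2, 4, 7 and 14), with day 0 at the end of the run-in. No diet and day has a second pool, so the p-values rest on how far pools of different days lie apart, not on animals.

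In the colon, dividing cells sit in the lower crypt, and their daughters leave the cycle as they move towards the surface. Transcripts of mitosis genes accumulate in the G2 phase and in mitosis and are nearly absent from resting cells, which is why Mki67 and its companions serve as markers of proliferation in whole tissue. In RNA from a scraping, more dividing cells and more mitotic RNA per dividing cell cannot be told apart. The series title speaks of oxidative stress that begins at once and of hyperproliferation that follows with a delay, and the day-by-day comparison of mitosis genes bears on the timing of the second.

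Promoters of mitosis genes commonly carry a cell cycle genes homology region (CHR), a short element near the transcription start through which repressor and activator complexes time expression to late cell cycle, and CCAAT boxes, bound by the factor NF-Y. Both are shown because they are sequence features that the choice of genes did not use. RefSeq start sites of the build GRCm38.p6, from 250 bases before to 50 bases after the start, were at hand for 40 of the 47 genes. The CHR was searched as TTTGAA or TTCGAA and the CCAAT box as CCAAT, each on both strands, and no match of one overlaps a match of the other in the sequences shown. For the 8 genes with the largest difference between the diets that held a CHR within 120 bases before and 30 bases after the start, this stretch reads as follows, 5′ to 3′, with CHR and CCAAT matches in capitals (an element on the opposite strand appears as TTCAAA or ATTGG).
Bub1 (chr2:127831830-127831979, minus strand): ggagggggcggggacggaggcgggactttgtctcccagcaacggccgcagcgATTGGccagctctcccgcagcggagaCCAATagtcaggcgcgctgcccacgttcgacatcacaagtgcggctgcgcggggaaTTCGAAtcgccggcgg
Cenpa (chr5:30666766-30666915, plus strand): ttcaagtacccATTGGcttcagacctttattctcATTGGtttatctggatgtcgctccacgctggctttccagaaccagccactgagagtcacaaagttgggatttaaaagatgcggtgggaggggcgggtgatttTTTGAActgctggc
Kif2c (chr4:117178743-117178892, minus strand): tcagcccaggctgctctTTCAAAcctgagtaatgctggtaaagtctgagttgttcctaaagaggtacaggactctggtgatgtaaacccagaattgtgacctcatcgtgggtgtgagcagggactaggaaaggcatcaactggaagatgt
Ube2c (chr2:164769809-164769958, plus strand): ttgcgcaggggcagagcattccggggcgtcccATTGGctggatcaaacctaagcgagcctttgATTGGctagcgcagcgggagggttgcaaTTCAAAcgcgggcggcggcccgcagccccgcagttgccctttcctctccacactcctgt
Ect2 (chr3:27153849-27153998, minus strand): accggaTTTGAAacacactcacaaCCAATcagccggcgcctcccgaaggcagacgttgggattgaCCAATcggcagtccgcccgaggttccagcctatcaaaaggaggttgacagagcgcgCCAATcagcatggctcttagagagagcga
Ccnb2 (chr9:70421525-70421674, minus strand): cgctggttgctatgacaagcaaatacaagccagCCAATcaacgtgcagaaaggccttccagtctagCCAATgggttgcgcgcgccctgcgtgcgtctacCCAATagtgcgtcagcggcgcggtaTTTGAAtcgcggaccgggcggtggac
Kif11 (chr19:37376262-37376411, plus strand): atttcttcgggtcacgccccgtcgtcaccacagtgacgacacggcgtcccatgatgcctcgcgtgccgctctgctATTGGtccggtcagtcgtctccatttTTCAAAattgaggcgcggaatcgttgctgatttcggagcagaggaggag
Spc25 (chr2:69206184-69206333, minus strand): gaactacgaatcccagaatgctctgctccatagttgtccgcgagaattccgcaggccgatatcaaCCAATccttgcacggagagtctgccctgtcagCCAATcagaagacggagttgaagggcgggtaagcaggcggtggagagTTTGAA

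A CHR match lay in the 300-base promoter of 30 of the 40 genes, against 1933 of 11805 genes tested that have an entry (16.4%) and 19.2% of all 32851 promoters in the table. Within 50 bases of the start the shares were 67.5% and 4.46%. A CCAAT box was present in 30 of the 40 genes, against 41.4% of genes tested and 37.4% of all promoters. A pair of letter strings for E2F sites, TTTCCCGC and TTTGGCGC on both strands, occurred in 2 of the 40, against 3.07% of genes tested and 1.56% of all promoters. The letters GGCGGGAA, searched on both strands for a cell cycle-dependent element (CDE), occurred in 0 of the 40, against 4.18% of genes tested and 2.19% of all promoters. This string shares the letters GCGGGAA with the opposite strand of the first E2F string. Other forms of a CDE were not searched, so whether these promoters hold a CDE is not read from this count. These 4 motifs were all that were searched, and they were chosen with the expression values known. The mean GC content of the promoters was 59.0% for these genes and 59.9% for genes tested. As printed above, the CHR of Bub1, Cenpa, Ccnb2 and Spc25 lies just downstream of the start, that of Kif11 and Ube2c just upstream of it, and that of Kif2c and Ect2 farther upstream. The 9 measured genes with an entry and no CHR match had a median log2 fold change of heme over control of 0.39, and the 30 with a match 0.41. A match is a run of letters and was not tested as a binding site.

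The 46 mitosis genes stood higher on the heme diet, nearly all of them by a modest and similar amount, and most of the difference was in the pools of days 7 and 14. Over all pools, 45 of the 46 had a positive log2 fold change of heme over control, where 49.0% of all genes tested did. The median was 0.41 log2, against -0.002 over all genes tested, and the range ran from -0.05 for Pttg1 to 0.59 for Birc5. None of the 46 passed limma's test over all genes in this comparison (adjusted p from 0.055 to 0.452), in which 0.669% of genes tested were called and 0.595% were called higher. At an unadjusted p under 0.05 there were 43 of the 46, all higher, against 8.39% of genes tested. The heme pools lay wholly above all 5 control pools in 20 of the 46 genes, against 3.26% of genes tested. Each heme pool lay above the control pool of its own day on all 4 days in 44 of the 46, against 10.9%. With the day as a block, 3 of the 46 were called (limma adjusted p), namely Ndc80 (0.55 log2, adjusted p = 0.0192), the condensin subunit Ncapd2 (0.46, adjusted p = 0.0223) and Cdc20 (0.40, adjusted p = 0.0381), where 0.461% of genes tested were called higher. Without the heme pool of day 7 the median of the 46 was 0.30, and without both pools of day 7, a choice made after the values were seen, it was 0.27.

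**Figure D1:**
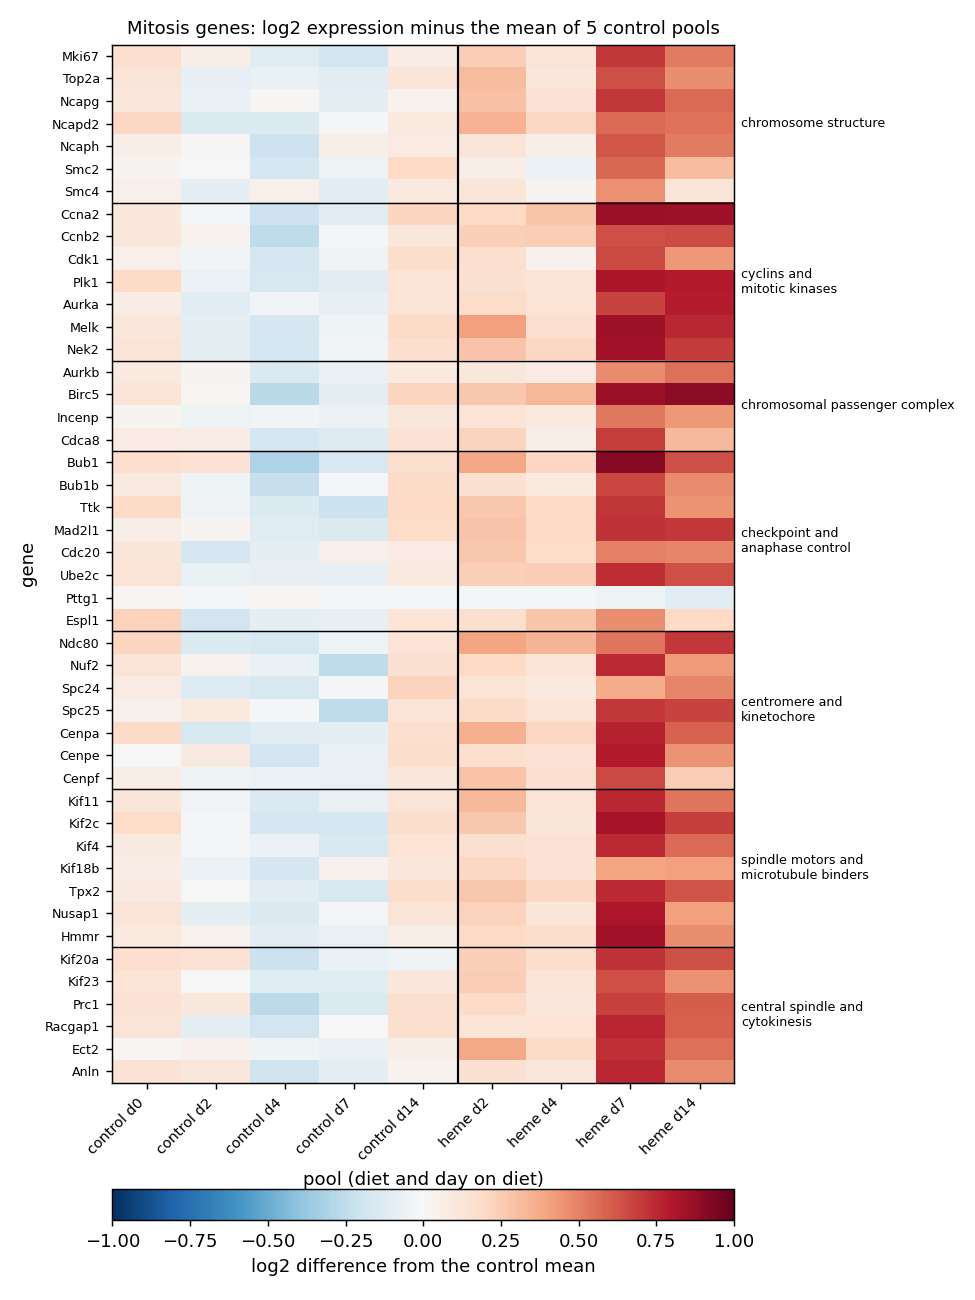
Heat map of the 46 measured mitosis genes (rows, grouped by role) in the 9 pools (columns, 1 array each), coloured by log2 expression minus the mean of the 5 control pools. The heme pools of days 7 and 14 are red in nearly every row, those of days 2 and 4 pale red, and the Pttg1 row stays near 0 throughout.

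By day, with 1 heme pool each, the median difference was larger on days 7 and 14 than on days 2 and 4. Against the mean of the control pools, the median of the 46 genes was 0.23 log2 on day 2, 0.14 on day 4, 0.70 on day 7 and 0.54 on day 14. On day 2, 45 of the 46 were above the control mean (52.3% of genes tested) and 36 above every control pool, against 19.8% of genes tested. On day 4, 44 were above the control mean (51.3%) and 22 above every control pool, against 17.3%. On day 7 the heme pool exceeded every control pool in 45 of the 46 genes (17.9% of genes tested), and on day 14 in 44 (32.1%). No mitosis gene was called on days 2 or 4 by limma (lowest adjusted p 0.312 and 0.569, with 8 and 1 at an unadjusted p under 0.05, all higher, against 4.87% and 4.11% of genes tested). On those days 0 and 1 of all genes tested were called (0% and 0.00669%). On day 7, 13 of the 46 were called, all higher, against 0.883% of genes tested called higher and 1.63% in either direction. On day 14, 35 of the 46 were called, all higher, against 11.3% called higher and 27.1% called in either direction. Of the 13 genes called on day 7, 12 were also called on day 14. Both days share the 5 control pools. The adjusted p of a gene also depends on the p-values of all genes tested, far more of which were called on day 14. The larger count on day 14 is therefore not read as a larger difference, as the median was 0.70 on day 7 and 0.54 on day 14. Ccna2, for example, had 0.85 log2 with an SE of 0.15 on both days, and was called on day 14 only. With arrays centred on their median, 37 and 42 of the 46 were called on days 7 and 14, and the split of all calls shifted. On day 7 it went from 132 higher and 112 lower to 274 and 151, and on day 14 from 1686 and 2359 to 2627 and 1556, where centring put the median of all genes at 0.072 log2.

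The calls of day 14 rested less on single pools than those of day 7. Leaving out the control pool of day 0 took the day 7 count to 2, that of day 7 to 1, and those of days 2, 4 or 14 to 0. The share of all genes tested called in either direction on day 7 fell as well, from 1.63%. It was 0.455%, 0.107%, 0.134%, 0.147% and 0.0535% without the control pool of day 0, 7, 2, 4 or 14. For day 14 the counts were 29, 21, 28, 19 and 30 when the control pool of day 0, 2, 4, 7 or 14 was left out. In every leave-one-out fit, 17 genes were called on day 14, namely Aurka, Aurkb, Birc5, Ccna2, Ect2, Hmmr, Incenp, Kif4, Mad2l1, Melk, Ncapg, Ncaph, Nek2, Plk1, Spc25, Tpx2 and Ube2c. The other 18 lost their call without at least 1 control pool, with an adjusted p of up to 0.100. The share of all genes tested that kept a call in every such fit is not given here. The steadier calls of day 14 are therefore not read as particular to the mitosis genes. Since each heme day has a single pool, its own spread is assumed to equal that of the control pools.

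**Figure D2:**
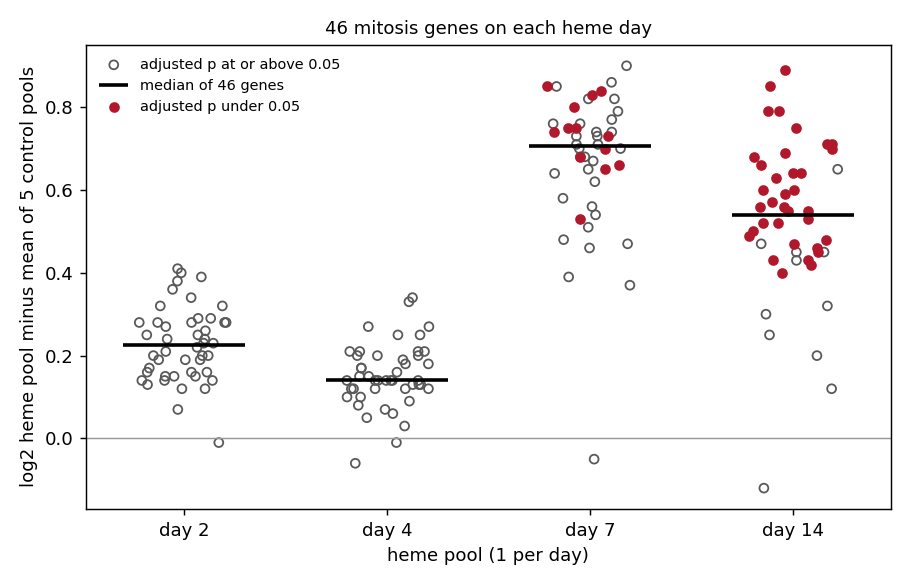
Log2 expression of each heme pool minus the mean of the 5 control pools for the 46 mitosis genes (1 point a gene, spread sideways for visibility), with filled points for a limma adjusted p under 0.05. The median bars sit at 0.23, 0.14, 0.70 and 0.54 on days 2, 4, 7 and 14, and the filled points number 0, 0, 13 and 35.

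The control pools were not flat. The control pools of days 0 and 14 both lay above those of days 4 and 7 in 45 of the 46 genes, against 15.3% of genes tested. Relative to the control mean, the median of the 46 was 0.11 log2 on day 0, -0.02 on day 2, -0.14 on day 4, -0.08 on day 7 and 0.14 on day 14. The heme pool of day 4, at 0.14, thus stood no higher than the control pool of day 14. The slope of the control pools on log2(day + 1) called none of the 46 (limma adjusted p from 0.765 to 1.000, 0 at an unadjusted p under 0.05, against 7.18%) and 0% of genes tested. Measured against the control pool of the same day, the median difference was 0.24 log2 on day 2, 0.29 on day 4, 0.81 on day 7 (1.75-fold) and 0.44 on day 14 (1.35-fold). Within the heme pools, day 2 exceeded day 4 in 40 of the 46 genes (46.6% of genes tested) and day 7 exceeded day 14 in 39 (49.3%). The highest of all 9 pools was the heme pool of day 7 in 38 genes (7.79% of genes tested) and that of day 14 in 7 (25.4%). Both late heme pools exceeded both early ones in 42 (18.8%).

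Whether the difference between the diets was larger late than early was tested directly, as the difference on days 7 and 14 minus that on days 2 and 4. The value was positive in 44 of the 46 genes, where 42.2% of genes tested were positive, with a median of 0.31 log2 against -0.028 over all genes tested. It was called for none of the 46 (limma adjusted p from 0.440 to 0.941) and for 0% of genes tested. At an unadjusted p under 0.05 it was positive in 20 of the 46, against 2.05% of genes tested. The highest values were 0.61 for Spc25, 0.54 for Plk1, 0.49 for Kif20a, 0.48 for Kif4 and Aurka and 0.47 for Kif2c. The lowest were -0.06 for Pttg1, -0.05 for Espl1 and 0.04 for Kif18b. Ndc80 (0.05) and Cdc20 (0.08) also lay near the bottom. Measured against the control pools of the same days, they had nearly as large a difference early as late. For Cdc20 these differences were 0.44, 0.27, 0.45 and 0.42 log2 on days 2, 4, 7 and 14. Against the mean of all 5 control pools, used by gene below, its early values are smaller than its late ones.

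**Figure D3:**
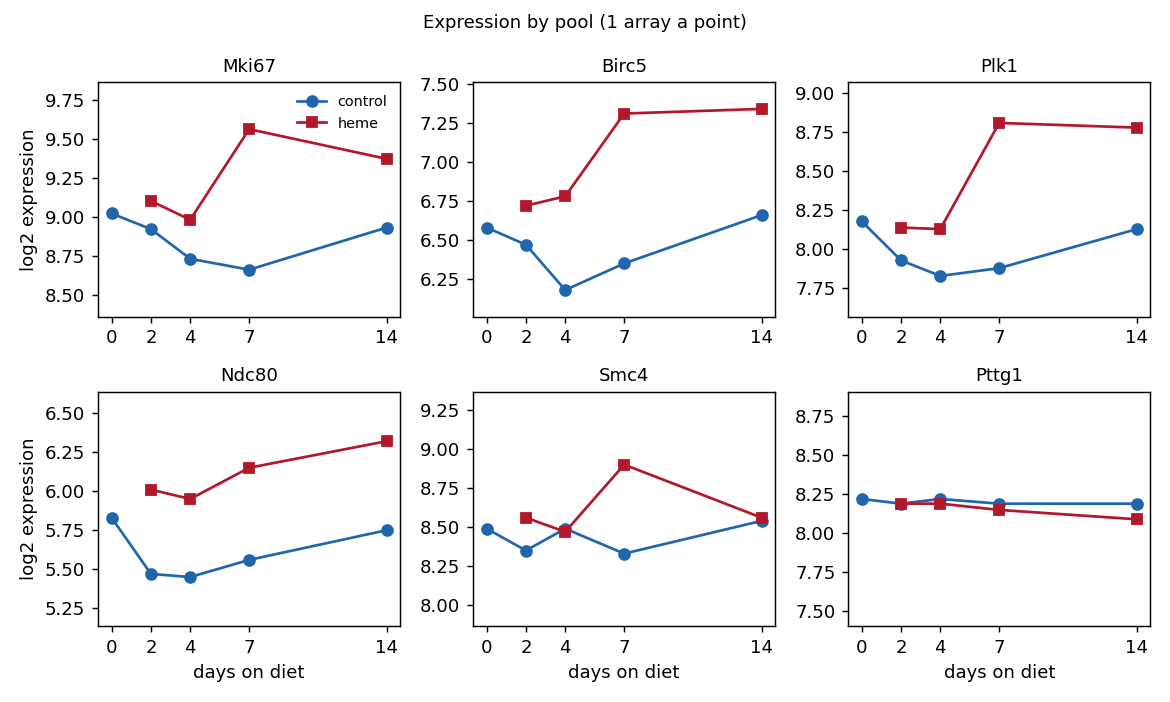
Log2 expression by days on diet for 6 mitosis genes, 1 array a point, with control pools as circles and heme pools as squares, on vertical axes of equal span. Mki67, Birc5 and Plk1 have their largest gap on day 7, Ndc80 is separated on all 4 days, Smc4 lies 0.46 above its control mean on day 7 and 0.12 on day 14, and Pttg1 lies between 8.09 and 8.22 in all 9 pools.

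In the values by gene that follow, control pools are given in the order of days 0, 2, 4, 7 and 14 and heme pools in the order of days 2, 4, 7 and 14, all as log2 expression. Fold changes of a heme day are against the mean of the control pools, with limma's adjusted p over all genes tested. Log2 levels are compared within a gene only.

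Among the 7 roles, the highest late medians were those of cyclins and mitotic kinases, which drive entry into and passage through mitosis. All 7 measured genes were called higher on day 14, with a median of 0.75 log2, and 3 on day 7, with a median of 0.82. Ccna2, the cyclin A that acts in S phase and G2 (probeset 10497831), read 8.71, 8.59, 8.40, 8.50 and 8.82 in the control pools and 8.80, 8.88, 9.46 and 9.45 in the heme pools. The late heme pools stood clear of the rest, and the heme pool of day 2 lay within the control range. It was 1.80-fold higher on day 14 (log2 fold change 0.85, SE 0.15, adjusted p = 0.0126) and had 0.85 on day 7 (adjusted p = 0.0559). Plk1, the polo-like kinase of centrosome maturation, chromosome attachment and cytokinesis (probeset 10557156), read 8.18, 7.93, 7.83, 7.88 and 8.13 in the control pools and 8.14, 8.13, 8.81 and 8.78 in the heme pools. Its early heme pools lay inside the control range, and it rose 1.73-fold by day 14 (adjusted p = 0.0131). Aurka, the centrosome and spindle pole kinase (probeset 10490104), read 7.09, 6.91, 6.99, 6.93 and 7.15 in the control pools and 7.20, 7.15, 7.69 and 7.80 in the heme pools. Its heme pool of day 4 lay level with its highest control pool. It rose on both late days, by 0.68 log2 on day 7 (adjusted p = 0.0382) and 0.79 on day 14 (adjusted p = 0.00650), and was highest on day 14.

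Cdk1, the kinase at the centre of mitotic entry, had the smallest difference of the group over all pools, at 0.33 log2 (adjusted p = 0.232). It read 7.85, 7.77, 7.63, 7.76 and 7.97 in the control pools and 7.96, 7.84, 8.46 and 8.23 in the heme pools, with both early heme pools inside the control range, and rose 1.35-fold on day 14 (adjusted p = 0.0404). Ccnb2, a B-type cyclin that binds Cdk1, read 8.60, 8.52, 8.23, 8.47 and 8.60 in the control pools and 8.72, 8.73, 9.13 and 9.14 in the heme pools, with no overlap between the diets. Melk, a kinase of dividing progenitor cells, read 7.31, 7.11, 7.03, 7.16 and 7.39 in the control pools and 7.61, 7.36, 8.05 and 7.95 in the heme pools, with only the heme pool of day 4 inside the control range. Nek2, a centrosome kinase, read 7.43, 7.21, 7.13, 7.28 and 7.47 in the control pools and 7.59, 7.51, 8.14 and 8.00 in the heme pools, again without overlap. Melk and Nek2 were called on both late days (day 7 adjusted p = 0.0472 and 0.0466, day 14 0.0135 and 0.0156), and Ccnb2 on day 14 (0.66 log2, adjusted p = 0.0200).

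The chromosomal passenger complex joins Aurora B kinase to Incenp, survivin and borealin and corrects faulty attachments at centromeres. Birc5, which encodes survivin (probeset 10382998), had the largest difference of all 46 genes. It stood at 6.45 ± 0.19 log2 in the control pools (SD, n = 5) and at 7.04 ± 0.33 in the heme pools (SD, n = 4), from pools that read 6.58, 6.47, 6.18, 6.35 and 6.66 in the control pools and 6.72, 6.78, 7.31 and 7.34 in the heme pools. Every heme pool was above every control pool, by a small margin on days 2 and 4 and a wide one later. It rose 1.86-fold on day 14 (log2 fold change 0.89, SE 0.17, adjusted p = 0.0165), and on day 7 had 0.86 (adjusted p = 0.0719). Incenp, the scaffold, had the smallest difference of the complex, at 0.30 over all pools, and read 7.08, 7.00, 7.02, 6.99 and 7.16 in the control pools and 7.19, 7.15, 7.58 and 7.48 in the heme pools. Its heme pool of day 4 lay inside the control range, and it rose on both late days (adjusted p = 0.0368 and 0.0126). The kinase itself, Aurkb, read 7.51, 7.44, 7.27, 7.35 and 7.51 in the control pools and 7.53, 7.50, 7.89 and 7.97 in the heme pools, with the heme pool of day 4 inside the control range and a 1.47-fold rise on day 14 (adjusted p = 0.0132). Cdca8, which encodes borealin, was not called on any day and had 0.70 log2 on day 7 (adjusted p = 0.066) and 0.32 on day 14 (adjusted p = 0.123).

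Genes of the spindle checkpoint and of anaphase control included called and uncalled members, with 3 of 8 called on day 14 and 1 on day 7. Bub1, a checkpoint kinase at kinetochores (probeset 10487480), had the highest day 7 value of all 46 genes without passing the test. It read 6.97, 6.95, 6.49, 6.64 and 6.96 in the control pools and 7.19, 7.01, 7.71 and 7.45 in the heme pools, and had 0.90 log2 on day 7 (adjusted p = 0.0879) and 0.65 on day 14 (adjusted p = 0.0577). Its diets did not overlap, but its control pools were the most widely spread of the 46 (SD 0.22, n = 5). Mad2l1, which holds back the anaphase-promoting complex, read 8.64, 8.61, 8.46, 8.44 and 8.77 in the control pools and 8.87, 8.78, 9.31 and 9.29 in the heme pools, without overlap, and rose 1.63-fold on day 14 (adjusted p = 0.0123). Cdc20, the activator of the anaphase-promoting complex that Mad2l1 restrains (probeset 10515744), read 7.42, 7.13, 7.21, 7.35 and 7.38 in the control pools and 7.57, 7.48, 7.80 and 7.79 in the heme pools. Its heme pools all lay above its control pools, by less on days 2 and 4 (0.27 and 0.18 log2 over the control mean) than on days 7 and 14 (0.51 and 0.50), and it rose 1.41-fold on day 14 (adjusted p = 0.0259). Ube2c, the ubiquitin-conjugating enzyme of that complex, read 7.42, 7.22, 7.20, 7.20 and 7.38 in the control pools and 7.52, 7.53, 8.02 and 7.93 in the heme pools, with no overlap and calls on day 7 (0.74 log2, adjusted p = 0.0349) and day 14 (0.64, adjusted p = 0.0102).

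Separase cuts the cohesin that holds sister chromatids together. Pttg1, or securin, the inhibitor of separase (probeset 10385325), was the one gene of the 46 with a negative difference. It read 8.22, 8.19, 8.22, 8.19 and 8.19 in the control pools and 8.19, 8.19, 8.15 and 8.09 in the heme pools, with no heme pool above the highest control pool. Its log2 fold change was -0.05 over all pools (adjusted p = 0.452) and -0.12 on day 14 (adjusted p = 0.0633). In 3 of its 5 control pools the value was the same, so its measured spread is small. Espl1, or separase, read 6.30, 5.88, 5.98, 5.99 and 6.21 in the control pools and 6.23, 6.35, 6.54 and 6.27 in the heme pools. Its highest control pool lay above the heme pools of days 2 and 14, though every heme pool exceeded the control pool of its own day. It had 0.27 log2 over all pools, 0.47 on day 7 (adjusted p = 0.212) and 0.20 on day 14 (adjusted p = 0.418). The checkpoint kinases Bub1b and Ttk were not called either, with 0.47 and 0.45 log2 on day 14 (adjusted p = 0.0557 and 0.104).

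At the centromere and kinetochore, the structure that couples chromosomes to spindle microtubules, 4 of 7 genes were called on day 14 and 1 on day 7. Ndc80, the microtubule-binding subunit that names its complex (probeset 10452709), stood at 5.61 ± 0.17 log2 in the control pools (SD, n = 5) and at 6.11 ± 0.16 in the heme pools (SD, n = 4). Its pools read 5.83, 5.47, 5.45, 5.56 and 5.75 in the control pools and 6.01, 5.95, 6.15 and 6.32 in the heme pools. The diets were separated from day 2 on, and the gene had the second smallest adjusted p of the 46 over all pools (0.50 log2, adjusted p = 0.0711) and rose 1.63-fold on day 14 (adjusted p = 0.0242). Spc25, a partner in the complex (probeset 10483401) read 7.48, 7.53, 7.42, 7.18 and 7.57 in the control pools and 7.63, 7.57, 8.14 and 8.11 in the heme pools, with the heme pool of day 4 level with the highest control pool, and was 1.60-fold higher on day 14 (adjusted p = 0.0189). Spc24, another partner, read 6.89, 6.68, 6.65, 6.80 and 7.03 in the control pools and 6.95, 6.91, 7.18 and 7.30 in the heme pools, with both early heme pools below the control pool of day 14 and the smallest difference of the group (0.28 over all pools, 0.49 on day 14, adjusted p = 0.0492). Nuf2 had 0.74 log2 on day 7 (adjusted p = 0.073) and 0.43 on day 14 (adjusted p = 0.0837).

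Cenpa, the histone variant that marks centromeres, read 8.12, 7.77, 7.83, 7.84 and 8.10 in the control pools and 8.29, 8.14, 8.70 and 8.52 in the heme pools, without overlap and with a 1.50-fold rise on day 14 (adjusted p = 0.0327). Cenpf, a large kinetochore protein that appears in G2, read 6.93, 6.82, 6.81, 6.79 and 6.98 in the control pools and 7.15, 7.03, 7.53 and 7.11 in the heme pools. It was the single gene called on day 7 (0.66 log2, adjusted p = 0.0329) and not on day 14 (0.25, adjusted p = 0.0783). The kinetochore motor Cenpe had 0.79 log2 on day 7 and 0.45 on day 14 (adjusted p = 0.054 and 0.0545).

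Spindle motors and microtubule-binding proteins, which build and shape the spindle, were called throughout on day 14. All 7 passed the test and were higher on day 14, with a median of 0.53 log2, and 4 on day 7, with a median of 0.75. Kif2c, a kinesin that takes microtubules apart at centromeres (probeset 10515431), read 6.86, 6.67, 6.51, 6.50 and 6.85 in the control pools and 6.95, 6.80, 7.50 and 7.37 in the heme pools. Its heme pool of day 4 lay inside the control range, and it was 1.61-fold higher on day 14 (adjusted p = 0.0256). Kif4, the chromosome-arm kinesin (probeset 10601011), read 6.59, 6.49, 6.44, 6.35 and 6.64 in the control pools and 6.66, 6.65, 7.25 and 7.07 in the heme pools, with its early heme pools just above the control range, and rose on both late days (0.75 log2, adjusted p = 0.0428, and 0.57, adjusted p = 0.0173). Kif18b, which trims astral microtubules, had the smallest difference of the group and read 6.35, 6.22, 6.11, 6.32 and 6.38 in the control pools and 6.48, 6.42, 6.67 and 6.69 in the heme pools. The heme pools of Kif18b all lay above its control pools, with 0.39 on day 7 (adjusted p = 0.135) and 0.42 on day 14 (adjusted p = 0.0348).

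Kif11, the motor that pushes spindle poles apart, read 7.75, 7.60, 7.48, 7.55 and 7.76 in the control pools and 7.95, 7.76, 8.38 and 8.16 in the heme pools, with the heme pool of day 4 level with the highest control pool. Tpx2, which activates Aurora A and nucleates microtubules, read 7.52, 7.44, 7.33, 7.27 and 7.61 in the control pools and 7.70, 7.64, 8.18 and 8.06 in the heme pools, without overlap. Nusap1, which bundles spindle microtubules, read 6.96, 6.74, 6.69, 6.81 and 6.96 in the control pools and 7.06, 6.95, 7.64 and 7.24 in the heme pools, with the heme pool of day 4 inside the control range. Hmmr, a spindle pole protein and hyaluronan receptor, read 6.51, 6.45, 6.30, 6.34 and 6.47 in the control pools and 6.61, 6.59, 7.25 and 6.88 in the heme pools, without overlap. Of these 4, Kif11, Nusap1 and Hmmr were called on day 7 (adjusted p = 0.0438, 0.0371 and 0.0227), while Tpx2 had 0.0534. All 4 were called on day 14 (adjusted p = 0.0224 for Kif11, 0.0178 for Tpx2, 0.0459 for Nusap1 and 0.0172 for Hmmr).

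Genes of the central spindle and of cytokinesis, which split the cell after the chromosomes have parted, were called in 6 of 6 cases on day 14 and in 1 on day 7. Ect2, the exchange factor that activates RhoA at the division plane (probeset 10497520), had the smallest p of the 46 in all 5 comparisons of heme with control. It stood at 8.49 ± 0.06 log2 in the control pools (SD, n = 5) and at 8.95 ± 0.23 in the heme pools (SD, n = 4), and its pools read 8.50, 8.53, 8.45, 8.42 and 8.55 in the control pools and 8.87, 8.68, 9.22 and 9.04 in the heme pools. Its control pools were tightly grouped and every heme pool lay above them. It had 0.47 log2 over all pools (SE 0.09, adjusted p = 0.055), and rose 1.65-fold on day 7 (adjusted p = 0.0100) and 1.47-fold on day 14 (adjusted p = 0.00481). Kif20a, a kinesin of the central spindle (probeset 10454709), read 7.38, 7.36, 7.00, 7.15 and 7.18 in the control pools and 7.45, 7.39, 7.94 and 7.85 in the heme pools, without overlap. It rose 1.56-fold on day 14 (adjusted p = 0.0247). Kif23, the kinesin of centralspindlin, had the smallest difference of the group (0.37 over all pools) and read 8.14, 8.01, 7.88, 7.88 and 8.11 in the control pools and 8.25, 8.14, 8.65 and 8.46 in the heme pools, with the heme pool of day 4 level with the highest control pool and a rise of 0.45 on day 14 (adjusted p = 0.0343).

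Racgap1, its partner in centralspindlin, read 7.82, 7.60, 7.50, 7.69 and 7.85 in the control pools and 7.83, 7.83, 8.45 and 8.29 in the heme pools. Prc1, which cross-links the central spindle, read 7.28, 7.24, 6.88, 6.99 and 7.30 in the control pools and 7.33, 7.25, 7.82 and 7.74 in the heme pools. Anln, an actin-binding protein of the contractile ring, read 7.24, 7.21, 6.90, 7.00 and 7.13 in the control pools and 7.25, 7.21, 7.85 and 7.57 in the heme pools. In these 3 genes at least 1 early heme pool lay inside the control range, and the day 14 rises were 0.60, 0.60 and 0.48 log2 (adjusted p = 0.0239, 0.0481 and 0.0439).

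Of 7 chromosome structure genes, 5 were called on day 14 and 2 on day 7, and the core condensin subunits were called on neither day. Mki67, the proliferation marker that coats mitotic chromosomes (probeset 10568714), stood at 8.85 ± 0.15 log2 in the control pools (SD, n = 5) and at 9.25 ± 0.26 in the heme pools (SD, n = 4). Its pools read 9.02, 8.92, 8.73, 8.66 and 8.93 in the control pools and 9.10, 8.98, 9.56 and 9.37 in the heme pools. The heme pool of day 4 lay below the control pool of day 0, and the late heme pools stood above all others. It rose 1.43-fold on day 14 (log2 fold change 0.52, SE 0.14, adjusted p = 0.0369) and had 0.71 on day 7 (adjusted p = 0.0659). Top2a, the topoisomerase that untangles sister chromatids, read 8.81, 8.60, 8.62, 8.58 and 8.81 in the control pools and 9.00, 8.80, 9.33 and 9.15 in the heme pools, and was called on both late days, with the heme pool of day 4 inside the control range (adjusted p = 0.0499 and 0.0253). A second, dim Top2a probeset below the brightness filter had a difference of 0.05 log2.

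Condensin I, which compacts mitotic chromosomes, has regulatory subunits and a core of paired ATPases. Ncapg read 7.36, 7.18, 7.26, 7.15 and 7.28 in the control pools and 7.54, 7.39, 7.95 and 7.81 in the heme pools, without overlap, and rose on both late days (0.70 log2, adjusted p = 0.0262, and 0.56, adjusted p = 0.00868). Ncapd2 read 7.80, 7.45, 7.46, 7.58 and 7.69 in the control pools and 7.94, 7.80, 8.16 and 8.14 in the heme pools, with the heme pool of day 4 level at 2 decimals with the highest control pool, and Ncaph 7.17, 7.12, 6.90, 7.17 and 7.19 in the control pools and 7.24, 7.18, 7.73 and 7.63 in the heme pools, with the heme pool of day 4 inside the control range. Both were called on day 14 (adjusted p = 0.0316 and 0.0208). Smc4, an ATPase of the condensin core (probeset 10492558), read 8.49, 8.35, 8.49, 8.33 and 8.54 in the control pools and 8.56, 8.47, 8.90 and 8.56 in the heme pools. It stood out on day 7 (0.46 log2, adjusted p = 0.0663) and was back near its highest control pool on day 14 (0.12, adjusted p = 0.369). Its partner Smc2 had 0.58 log2 on day 7 and 0.30 on day 14 (adjusted p = 0.083 and 0.122). The difference between core and regulatory subunits was not tested.

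Of 67 mitosis genes outside the list of 46, 65 had a positive value over all pools, against 49.0% of genes tested, with a median of 0.28 log2. They too were listed with earlier results of these data known, so they are not an independent check. For the counts of calls that follow, the shares of all genes tested are 11.3% higher and 15.8% lower on day 14, 0.883% higher on day 7 and 0.595% higher over all pools. Of 23 other spindle and cytokinesis genes, 7 rose on day 14, 6 on day 7 and 1 over all pools, and none fell. That one was Ckap2l, a spindle pole protein, which read 6.70, 6.51, 6.72, 6.52 and 6.73 in the control pools and 7.01, 7.02, 7.16 and 7.14 in the heme pools (0.45 log2 over all pools, limma adjusted p = 0.0127), with every heme pool above every control pool. The highest value over all pools in that list was 0.46 for Cdca3 (adjusted p = 0.148), and the lowest 0.10 for Psrc1 (adjusted p = 0.406). Of 26 other kinetochore and centromere genes, 13 rose and 1 fell on day 14. The highest and lowest over all pools were Sgo2a, a protector of centromeric cohesion, and Cenpl, which on day 14 had 0.55 log2 (adjusted p = 0.0359) and -0.28 (adjusted p = 0.0186). Of 18 other mitotic regulators, 8 rose on day 14, among them cyclin F, Ccnf (0.57, adjusted p = 0.0146), the highest over all pools, while the lowest, the Aurora A cofactor Bora, had -0.10 (adjusted p = 0.606). The day 14 median was 0.32, 0.33 and 0.31 log2 in these 3 lists, against 0.54 for the 46 genes and -0.001 over all genes tested. Their promoters held a CHR match in 80.0%, 45.8% and 54.5% of the genes with an entry.

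Neighbouring parts of the cell cycle machinery had smaller medians than the 46 genes. Their day 14 calls, those of DNA replication genes included, stand beside 11.3% of genes tested called higher, 15.8% lower and 27.1% in either direction. In either direction, 4 of 14 anaphase-promoting complex, 4 of 14 cohesin and other condensin and 8 of 21 G1 genes were called on day 14, against 27.1% of genes tested, and nothing particular to these lists is read from the counts. Of 38 DNA replication genes, 9 rose and none fell on day 14, with a median of 0.24 log2, and 1 rose on day 7, with a median of 0.15. The ribonucleotide reductase subunit Rrm2 was the highest over all pools (0.33, adjusted p = 0.278), reading 7.05, 6.91, 6.81, 6.81 and 7.32 in the control pools and 7.20, 6.97, 7.47 and 7.58 in the heme pools, and the origin protein Orc1 the lowest (-0.09, adjusted p = 0.422). Of 14 subunits and partners of the anaphase-promoting complex, 3 rose and 1 fell on day 14, with a median of -0.05. Ube2s, which extends the ubiquitin chains made with Ube2c, rose by 0.44 (adjusted p = 0.00435), and the subunit Anapc4 fell by 0.22 on the log2 scale (adjusted p = 0.012). Of 14 cohesin and other condensin genes, 2 rose and 2 fell on day 14. The acetyltransferase Esco2 rose by 0.35 (adjusted p = 0.0350) and the cohesin regulator Pds5b fell by 0.51 on the log2 scale (adjusted p = 0.00951). Of 21 G1 cyclins, kinases and inhibitors, 3 rose and 5 fell on day 14, from the transcription factor E2f2 (0.67, adjusted p = 0.0054) to the G1 kinase Cdk6 (-0.71, adjusted p = 0.00261). A CHR match was found in 8 of 32 DNA replication, 5 of 10 cohesin and other condensin, 2 of 13 anaphase-promoting complex and 4 of 15 G1 genes with an entry. An E2F string was found in 10, 4, 0 and 4 of the same genes. The differences between lists were not tested.

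**Figure D4:**
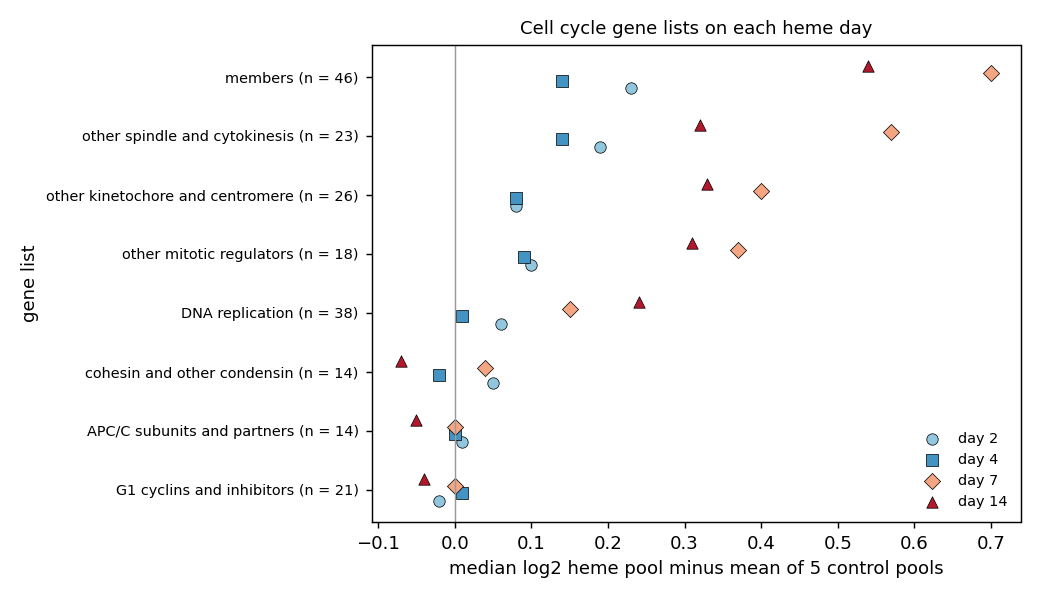
Median log2 difference of each heme pool from the mean of the 5 control pools for the 46 mitosis genes (members) and 7 other cell cycle lists, with the number of genes tested in each. The day 7 and day 14 symbols run from 0.70 and 0.54 for the mitosis genes to near 0 for cohesin, anaphase-promoting complex and G1 genes.

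Markers of the cell types in a colon scraping were read beside these results. For the day 14 calls given below, the shares of all genes tested are 11.3% higher and 15.8% lower. Surface colonocyte genes were among the brightest, with a list mean of 12.02 to 12.07 log2 in the control pools and 12.03 to 12.08 in the heme pools, as the labelled tissue would have. Single genes of this list moved both ways. On day 14, 2 of the 9 were called higher and 3 lower, with values from -0.60 to 0.89 log2. Crypt base and stem cell genes had list means of 7.13 to 7.24 in the control pools. In the heme pools of days 2, 4, 7 and 14 they read 7.20, 7.19, 7.08 and 7.07, so both late heme pools lay below every control pool. Of the 7 genes past the brightness filter, which Olfm4 did not pass, 2 were called lower and 0 higher on day 14. B and plasma cell genes, which could bring dividing lymphocytes, read 6.24 to 6.64 in the control pools. They read 6.08, 6.28, 6.47 and 6.57 in the heme pools of days 2, 4, 7 and 14, higher late than early as the mitosis genes were. Of the 7 genes, 1 was called higher on day 14 and 0 lower, namely Pou2af1 (0.24 log2, limma adjusted p = 0.0390), and nothing particular to this list is read from that count. T and NK cell genes read 5.34 to 5.50 in the control and 5.39 to 5.46 in the heme pools. Macrophage genes read 6.64 to 7.35 in the control pools and 6.45, 6.79, 7.11 and 7.16 in the heme pools of days 2, 4, 7 and 14. Fibroblast genes read 7.38 to 8.45 in the control pools and 7.33, 7.65, 8.17 and 7.97 in those heme pools, and endothelial genes 5.97 to 6.66 and 5.88, 6.07, 6.37 and 6.24. For the lymphocyte, macrophage, fibroblast and endothelial lists the highest heme pool lay below the highest control pool. The granulocyte and mast cell list read 4.75 to 4.87 in the control pools and 4.70, 4.80, 5.16 and 5.25 in the heme pools of days 4, 2, 7 and 14, with 5 of its 7 genes not past the filter. Enteroendocrine genes read 8.71 to 8.84 in the control pools and 8.37 and 8.24 in the late heme pools. Goblet genes read 11.96 to 12.07 in the control pools, with 11.91 and 11.80 in the late heme pools. Tuft genes read 6.24 to 6.36 in the control pools, with 6.16 and 6.01 in the late heme pools. On day 14, 4 of 7 enteroendocrine, 2 of 6 goblet and 2 of 6 tuft genes were called lower, and none higher. Exocrine pancreas genes stood at 8.97 in the control pool and 9.50 in the heme pool of day 2, against 5.35 to 5.51 in the other pools, and smooth muscle genes were highest on day 7 (9.90 control, 9.18 heme). On day 14, 1 of 7 T and NK cell genes and 1 of 8 exocrine pancreas genes were called lower. Called higher were 1 of 6 endothelial, 1 of 2 granulocyte and mast cell and 1 of 2 erythroid genes. No macrophage, fibroblast or smooth muscle gene was called. The part of these cells in the values of the mitosis genes was not tested. Without both pools of day 2 the median difference of the 46 genes was 0.47 log2.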

How the data were processed

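RNA of 3 or 4 mice per diet and day was pooled and hybridised to Affymetrix whole-transcript arrays, 1 per pool. The deposited values are log2 expression, 1 value a probeset and array, which the authors computed with RMA (robust multi-array average) per the submitters' processing notes, with the version not given in the sources used here. Array medians lay between 5.895 and 5.963. Precision is limited by how many arrays there are.

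Of 35556 probesets, 21789 had 1 gene symbol in the platform annotation, 1621 had several and were left out, and 12146 were unnamed here. Symbols were checked by Entrez ID against RefSeq (0 changed). Genes whose mean reached 4.716 log2, the 25th percentile, were tested with limma 3.58.1 in R 4.3.3 (lmFit, eBayes with intensity trend), with Benjamini-Hochberg adjustment across the 14953 genes, and called at an adjusted p under 0.05. Day comparisons have 4 residual degrees of freedom. Tables and figures used Python 3.11.15 and matplotlib 3.10.9. The fits were tested on simulated data in which 200 genes were changed. Noise was drawn independently for each gene, with 1 SD a gene pooled over both diets. In the deposited data the mitosis genes moved together, and far more genes were called on day 14. The day fits there take their spread from the control pools alone. The shares that follow hold for the simulated setting and do not carry over to the mitosis genes. With a change of 0.5 log2, 82.0% of these were called over all pools, but 0% on day 7 and 0% in late minus early. With a change of 1.0 log2 the shares were 98.5%, 88.0% and 77.0%.

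The labels give control and heme pools a shared day. Deviations from the diet means correlated with r = 0.651, -0.005, 0.333 and 0.168 on days 2, 4, 7 and 14, and between -0.454 and 0.422 across different days. Since a day is common to both diets in the labels, values from a day block are printed where a call changes.

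The genes, their roles, and the lists of other genes were written from textbook knowledge and chosen with earlier results of these data known. Members named with the value in every pool are the highest and lowest of each role over all pools, the 6 highest and 3 lowest in the late-minus-early comparison, every member called in a comparison, and Mki67, Ndc80 and Cdc20. From each other list, the genes named are the highest and lowest over all pools and any gene called in that comparison, with values in every pool for Ckap2l and Rrm2 only. Promoters were printed for the 8 members with the highest value over all pools whose CHR match lay from 120 bases before to 30 after the start, a window set after match positions were seen, so higher members with a match elsewhere are not shown. Alternatives covered the filter, the trend, robust moderation, the probeset rule, centring, the block, the period definition and each pool left out.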

Additional observations from a re-analysis of the deposited data

Results flagged for a closer look

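Of 82 groups of 4 or 5 pools checked for a sample far from the others, over the members named with full values or called and the median of the members, 1 stood out. With so many groups checked, a flag can arise by chance. Ncaph, a condensin subunit, read 6.90 log2 in the control pool of day 4, below the other control pools at 7.12 to 7.19.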

How the results depend on the processing

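The direction of the median over the 46 genes was positive in every alternative for which it was computed, for heme minus control, each heme day and late minus early. It was not computed for the slope on log2(day + 1) in place of late minus early, which called 0 members. Over all pools, where no member was called, 1 was called with the filter at the 50th percentile, with arrays centred on their median or with robust moderation (Ect2 in each), 3 with the day as a replicate block, and 0 to 4 with single pools left out (medians 0.30 to 0.49). On day 7 the 13 calls became 3 without a filter, 29 with the filter at the 50th percentile, 4 without the intensity trend, 37 with arrays centred on their median, 0 without both pools of day 2, and 0 to 13 with single pools left out (medians 0.67 to 0.73). On day 14 the 35 calls became 21 without both pools of day 2, 19 without both pools of day 7, and 19 to 35 with single pools left out (medians 0.50 to 0.57). On days 2 and 4 the leave-one-out medians were 0.18 to 0.25 and 0.11 to 0.17, and for late minus early 0.22 to 0.43, with 0 members called in each. The cause of these shifts was not tested. With the day as a block, late minus early called 0 members as before. Over all genes, day 7 called 244 with the planned settings, 93 without a filter, 404 with the filter at the 50th percentile, 115 without the trend and 425 with arrays centred. Without both pools of day 2 it called 20. Day 14 called 4045 with the planned settings, 3617 without both pools of day 2 and 2899 without both pools of day 7. Of all calls on day 14, 41.7% were higher, and 62.8% with arrays centred.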
